A study of Sus scrofa with 96 samples.

Results

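The genes described here carry iron into cells, out of cells and through the blood, store it, or set how much is absorbed. They are HAMP, TF, TFRC, TFR2, SLC40A1, SLC11A2, CYBRD1, FTH1, HEPH and HJV, 10 genes listed by name, with earlier results of these data known. Of these 10, 9 were found among the 25880 Ensembl gene identifiers of the count files. FTH1, which encodes the heavy chain of the iron store ferritin, had no identifier paired with its symbol and was not analysed here. Pigs (Sus scrofa) were fed a semi-purified diet that contained 8% D-xylose, a pentose sugar, or that diet with no xylose (0%, control). Messenger RNA of liver, kidney cortex, jejunum mucosa and longissimus dorsi muscle was counted in 96 libraries, 12 for each tissue and diet, and the series describes 24 animals. No age, sex or breed is stated, and the animal behind each library is not given in the sources used here. The libraries were made with QuantSeq, which reads each polyadenylated transcript near its 3′ end, so that counts need no correction for transcript length but depend on how that end is annotated.

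Mammals have no regulated route of iron excretion, so iron balance is set by uptake, release and storage. In human and mouse, enterocytes reduce and import dietary iron and export it through ferroportin to transferrin, which delivers it to cells that carry transferrin receptors. Hepcidin, a peptide hormone made by hepatocytes, causes ferroportin to be degraded; its transcription answers to iron-loaded transferrin and to bone morphogenetic protein (BMP) signals, sensed with TFR2, HJV and other membrane proteins, and to inflammation. The liver is both the source of hepcidin and transferrin and a main iron store.

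Each file was given to the sample whose title its name holds, which for 90 of the 96 files is a different sample from the one it is recorded under. Tissue markers were highest for the tissue of the title in all 96 libraries, and for the recorded tissue in 48. These markers do not check the diet. The diet of the title was the recorded diet in 48 of the 96 libraries, and which diet label is right was not tested. The 6 libraries under 1000000 counts (5 of jejunum, 1 of liver) were left out. The 90 that remain held 1044588 to 6942566 counts and comprise 11 xylose and 12 control libraries of liver, 12 and 12 of kidney, 10 and 9 of jejunum, and 12 and 12 of muscle, with both diets in each of 2 sequencing lanes. Levels are given as CPM, the count of a gene per 1000000 counts of its library, as the lowest, the median and the highest library of a group. Differences are log2 fold changes fitted with edgeR after TMM scaling, with a standard error (SE) derived from the test. Their p-values are adjusted over all genes tested and called under 0.05.

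**Figure D1:**
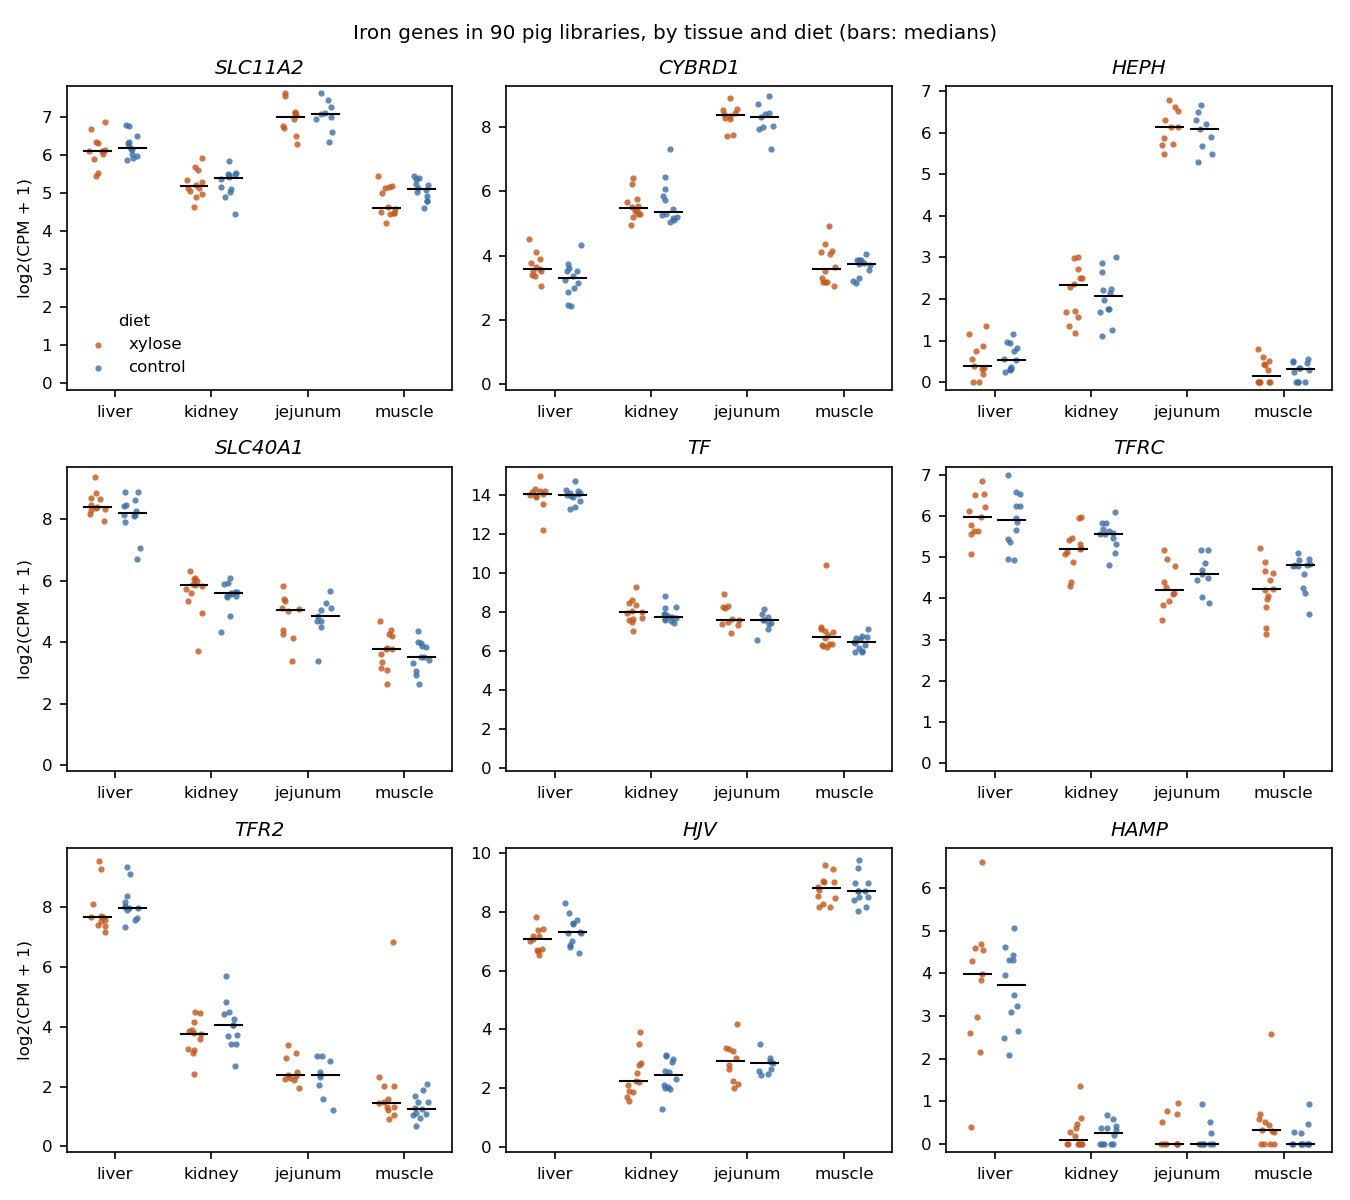
Level of the 9 iron genes as log2(CPM + 1) on the y axis in each of 90 libraries, by tissue on the x axis, with xylose libraries (orange) left of control libraries (blue) and a bar at each median. TF, TFR2, SLC40A1 and HAMP stand highest in liver, CYBRD1 and HEPH in jejunum and HJV in muscle, and 1 xylose library of muscle stands far above the others for TF (1361 CPM) and TFR2 (113 CPM).

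The genes of dietary iron uptake were highest in the jejunum. CYBRD1 (ENSSSCG00000025049) encodes duodenal cytochrome b, a ferric reductase of the intestinal brush border. Liver libraries held 4.35, 10.4 and 21.8 CPM, kidney 30.3, 42.2 and 158 CPM, jejunum 160.2, 327 and 496 CPM, and muscle 7.32, 12.1 and 29.1 CPM. Every jejunum library lay above every library of the other 3 tissues. CYBRD1 was lower in liver than in jejunum by a log2 fold change of -4.34 ± 0.16 (adjusted p 1.4e-43) and lower in kidney than in jejunum by -2.93 ± 0.15 (adjusted p 1.56e-33). In RNA of whole tissue, fewer cells of a type and less RNA per cell cannot be told apart.

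HEPH (ENSSSCG00000012363) encodes hephaestin, the ferroxidase that oxidises iron as it leaves the enterocyte. It ranged over 0, 0.439 and 1.53 CPM in liver, 1.15, 3.55 and 7.06 CPM in kidney, 38.3, 69.1 and 109 CPM in jejunum, and 0, 0.223 and 0.736 CPM in muscle. Jejunum did not overlap with any other tissue, and no read was counted in 2 of 23 liver and 10 of 24 muscle libraries. The fitted change of kidney over jejunum was -4.46 ± 0.20 (adjusted p 7.49e-38). Liver and muscle, the lowest neighbours in the order, did not differ past the threshold (0.55 ± 0.36, adjusted p 0.163), but with library totals alone as the scale liver was higher by 1.04 (adjusted p 0.00485). At the median, HEPH in liver and muscle was 0.635% and 0.322% of its jejunum level. Over 6 enterocyte markers the median share was 0.321% and 0.228%. The part of such jejunum transcripts in the HEPH level of liver and muscle was not tested.

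SLC11A2 (ENSSSCG00000034039) encodes DMT1, which imports ferrous iron from the gut lumen and from endosomes. Its levels were 42.6, 70.0 and 117 CPM in liver, 20.9, 37.3 and 59.2 CPM in kidney, 77.9, 131 and 199.8 CPM in jejunum, and 17.7, 31.3 and 42.8 CPM in muscle. It was the most evenly spread of the uptake genes: jejunum overlapped with liver but not with kidney or muscle. The fitted change of kidney over jejunum was -2.09 ± 0.12 (adjusted p 7.57e-30). That of liver over jejunum was -0.25 ± 0.12 (adjusted p 0.0465), and was -0.05 (adjusted p 0.718) with all 96 libraries.

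The exporter ferroportin, SLC40A1 (ENSSSCG00000027157), was highest in liver, where macrophages and hepatocytes use it to release iron. Liver libraries held 104, 331 and 657 CPM, kidney 12.1, 49.0 and 79.3 CPM, jejunum 9.42, 31.6 and 55.6 CPM, and muscle 5.19, 12.0 and 24.6 CPM. No library of another tissue reached the lowest liver library, and the other 3 tissues overlapped with each other. Liver was higher than jejunum by 4.13 ± 0.19 (adjusted p 5.55e-36) and higher than kidney by 3.68 ± 0.17 (adjusted p 1.62e-36). Jejunum over muscle was 0.15 ± 0.17 (adjusted p 0.431), and 1.27 (adjusted p 4.88e-10) with library totals alone.

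TF (ENSSSCG00000011640) encodes transferrin, the iron carrier of plasma, and was the most abundant of the 9 genes. It ranged over 4753, 17012 and 32395 CPM in liver, 128, 229 and 611 CPM in kidney, 91.98, 188 and 473 CPM in jejunum, and 59.6, 90.7 and 1361 CPM in muscle. All liver libraries lay above all others, and the other 3 tissues overlapped. The fitted change of liver over kidney was 6.96 ± 0.25 (adjusted p 2.71e-44). At the median, TF in kidney, jejunum and muscle was 1.34%, 1.10% and 0.533% of its level in liver. Over 11 hepatocyte markers that are not iron genes, the median share of the liver level was 0.710% in kidney, 0.999% in jejunum and 0.491% in muscle, and the part of these liver transcripts in the TF level outside the liver was not tested.

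TFRC (ENSSSCG00000011848), the receptor that takes up transferrin in most cells, was present in every library. It was counted at 29.3, 61.3 and 127 CPM in liver, 18.7, 42.3 and 67.2 CPM in kidney, 10.1, 20.9 and 35.4 CPM in jejunum, and 7.86, 23.1 and 36.1 CPM in muscle. All 4 tissues overlapped. Liver was higher than kidney by 1.51 ± 0.14 (adjusted p 1.63e-16) and kidney higher than jejunum by 0.63 ± 0.16 (adjusted p 0.000234). The side of muscle depended on the scale: kidney over muscle was -0.49 ± 0.14 (adjusted p 0.00161) after TMM scaling and 0.95 (adjusted p 1.39e-08) with library totals alone.

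The genes through which hepatocytes sense iron separated from each other. TFR2 (ENSSSCG00000007671), the second transferrin receptor, had 143, 239 and 736 CPM in liver, 4.33, 13.0 and 50.5 CPM in kidney, 1.31, 4.22 and 9.56 CPM in jejunum, and 0.621, 1.59 and 113 CPM in muscle. Liver did not overlap with the other tissues, and in muscle the second highest library held 4.01 CPM. Liver was higher than kidney by 5.05 ± 0.37 (adjusted p 5.57e-23), and kidney higher than jejunum by 1.55 ± 0.41 (adjusted p 0.000546). At the median, kidney had 5.44% of the liver level of TFR2, jejunum 1.77% and muscle 0.664%. The median share over the 11 hepatocyte markers was 0.710%, 0.999% and 0.491% in these tissues. The part of such liver transcripts in the TFR2 level outside the liver was not tested.

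HJV (ENSSSCG00000035429) encodes hemojuvelin, a BMP co-receptor of liver and skeletal muscle. It was counted at 90.9, 143 and 317 CPM in liver, 1.44, 3.83 and 13.9 CPM in kidney, 2.97, 6.25 and 17.2 CPM in jejunum, and 259, 421 and 863 CPM in muscle. Liver and muscle overlapped and both lay above kidney and jejunum in every library. The fitted change of liver over muscle was -2.15 ± 0.16 (adjusted p 8.59e-23) and kidney over muscle was -8.04 ± 0.21 (adjusted p 1.51e-56). At the median, liver held 33.9% of the muscle level of HJV, jejunum 1.48% and kidney 0.909%. Over 7 skeletal muscle markers, the median share of the muscle level was 0.940% in jejunum and 0.649% in kidney. The part of such muscle transcripts in the HJV level of jejunum and kidney was not tested.

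HAMP (ENSSSCG00000035436), the hepcidin gene, was counted almost only in liver, and at a low level there. Liver libraries held 0.314, 14.5 and 96.4 CPM, kidney 0, 0.147 and 1.56 CPM, jejunum 0, 0 and 0.957 CPM, and muscle 0, 0.0923 and 4.97 CPM. In reads this is 1794 over the 23 liver libraries, 19 over kidney, 7 over jejunum and 35 over muscle, of which 15 came from 1 library. Liver ranges overlapped with the others through 1 liver library with a single read and, for muscle, through that 1 muscle library. Liver was higher than kidney by 6.83 ± 0.39 (adjusted p 8.39e-30). Kidney over jejunum was 0.03 ± 1.26 (adjusted p 0.981), a value that rests on 19 and 7 reads. At the median, HAMP in kidney and muscle was 1.01% and 0.638% of its liver level. The median share over the 11 hepatocyte markers was 0.710% and 0.491%. The part of such liver transcripts in the HAMP reads outside the liver was not tested.

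Over the 6 pairs of tissues, 11511 genes were tested, all 9 iron genes among them. For liver over kidney 9 of 9 were called, beside 66.7% of all genes: 7 higher (29.4% of all genes) and 2 lower (37.3%). For liver over jejunum 9 were called, beside 76.6%: 6 higher (35.8%) and 3 lower (40.9%). For liver over muscle 8 were called, beside 76.7%: 6 higher (39.4%) and 2 lower (37.4%). For kidney over jejunum 7 were called, beside 74.9%: 3 higher (37.3%) and 4 lower (37.6%). For kidney over muscle 8 were called, beside 75.8%: 3 higher (42.3%) and 5 lower (33.5%). For jejunum over muscle 8 were called, beside 81.8%: 3 higher (43.5%) and 5 lower (38.4%). Most genes were called in every pair, so a call alone says little about a member. In the pairs with liver, higher calls outnumbered lower ones among the members. The directions were not tested as a set, and the sizes and orders above carry the description.

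The scale moved the values of whole pairs of tissues. The 10 most abundant genes took a median of 29.2% of all counts in liver, 10.8% in kidney, 14.6% in jejunum and 42.6% in muscle. With library totals alone, the median log2 value of all genes was -0.97 for liver over kidney, -0.70 for liver over jejunum and 0.58 for liver over muscle, against -0.09, -0.11 and 0.03 after TMM scaling. It was 0.29 for kidney over jejunum, 1.56 for kidney over muscle and 1.25 for jejunum over muscle with totals alone, against -0.00, 0.13 and 0.11. Of the genes called with totals alone, 13.4% were higher for liver over kidney, 28.2% for liver over jejunum, 69.8% for liver over muscle, 62.2% for kidney over jejunum, 89.5% for kidney over muscle and 77.9% for jejunum over muscle. After TMM scaling the same shares were 44.1%, 46.7%, 51.3%, 49.8%, 55.8% and 53.1%.

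With totals alone, the iron genes called for kidney over muscle were 7 higher and 1 lower, beside 81.5% and 9.57% of all genes. For jejunum over muscle 5 were higher and 1 lower, beside 67.9% and 19.3%, and for liver over muscle 7 higher and 1 lower, beside 55.2% and 23.9%. The counts for the other 3 pairs were as after TMM scaling. Totals alone turned TF, TFRC and SLC11A2 to higher in kidney than in muscle (0.98, 0.95 and 0.34) and TF to higher in jejunum than in muscle (0.62, adjusted p 0.00417). Relative to the shifts of all genes, these 4 values lie below the median gene.

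The muscle library of xylose replicate 7 stood apart. It held 1361 CPM of TF where the other 23 muscle libraries held 59.6 to 146, 113 CPM of TFR2 against 0.621 to 4.01, and 4.97 CPM of HAMP against 0 to 0.910. Hepatocyte genes were high in it too, with 2064 CPM of ALB (albumin) against 362 to 1073 and 504 CPM of APOA1 against 53.8 to 107. Of the muscle markers, the actin gene ACTA1 (82532 CPM against 146350 to 255128) and TNNC2 (10304 CPM against 13009 to 23119) lay below the other libraries, CKM, TNNT3, TNNI2, DES and PYGM lay inside their range, and ACTN3 (229 CPM against 16.8 to 143) lay above it. Without that library, TFR2 was higher in kidney than in muscle by 1.66 (adjusted p 2.71e-11), where with it the value was 0.21 (adjusted p 0.609). Also without it, 5 of 9 members were called for jejunum over muscle, beside 82.2% of all genes, and HAMP (-1.12, adjusted p 0.115), TF (-0.04, adjusted p 0.798) and TFR2 (0.24, adjusted p 0.378) no longer were. For kidney over muscle 7 members were called without it, beside 76.1% of all genes, and HAMP (-1.10, adjusted p 0.0523) and TF (-0.01, adjusted p 0.928) no longer passed.

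**Figure D2:**
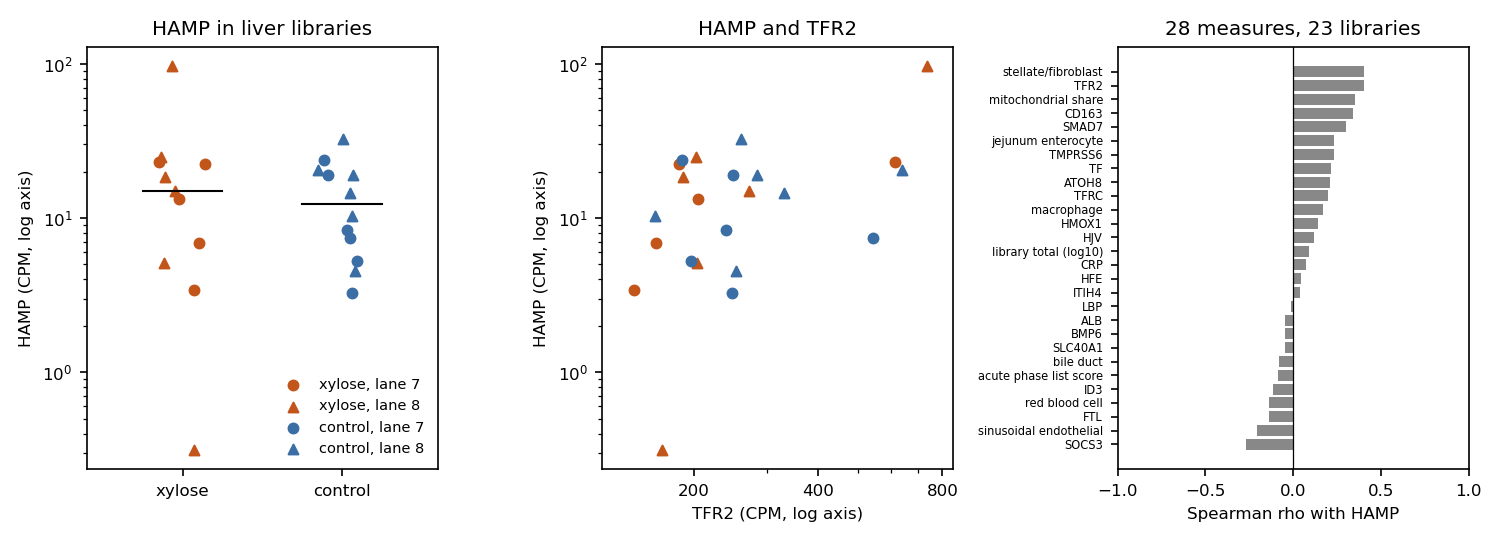
Left, HAMP in CPM on a log axis in 11 xylose (orange) and 12 control (blue) liver libraries, with lanes by symbol and a bar at each median; middle, HAMP against TFR2 in CPM, both on log axes; right, Spearman rho of HAMP with 28 measures as bars from 0. The highest (96.4 CPM) and lowest (0.314 CPM) HAMP levels are both in xylose libraries of lane 8, and no bar passes 0.41 in size.

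HAMP was among the most variable genes of the liver. The SD of its log2(CPM + 1) over 23 libraries was 1.29, rank 58 of 9194 genes tested, where the median gene had 0.483 and the gene at the 90th percentile 0.732. The other members varied less: TFR2 had an SD of 0.674, TFRC 0.583, SLC40A1 0.564, TF 0.534, CYBRD1 0.507, HJV 0.468 and SLC11A2 0.367. Both ends of the HAMP range were single libraries. Xylose replicate 7 held 96.4 CPM (640 reads of 6641726), and the next library, control replicate 9, 32.6 CPM. Xylose replicate 9 held 0.314 CPM, which is 1 read of 3186638, and the next, control replicate 4, held 3.24 CPM. The range was 3.24, 8.33 and 23.7 CPM in the 11 libraries of lane 7, and 0.314, 16.6 and 96.4 CPM in the 12 of lane 8.

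No measure followed hepcidin past the threshold in these 23 livers. Of 28 relations tested, covering depth, cell type markers, BMP targets, acute phase genes and iron genes, 0 passed by Spearman or by Pearson after Benjamini-Hochberg adjustment of permutation p-values. The 3 with the smallest Spearman p were the summed stellate cell and fibroblast markers (rho 0.41, permutation p 0.0560, adjusted 0.792; r 0.46, adjusted 0.300), TFR2 (rho 0.40, permutation p 0.0584, adjusted 0.792; r 0.50, adjusted 0.300) and the mitochondrial share of counts (rho 0.35, permutation p 0.1003, adjusted 0.792; r 0.31, adjusted 0.437). Without the 2 libraries farthest from the median of each measure, rho was 0.26, 0.28 and 0.19, and r was 0.21, 0.29 and 0.06. TFR2 followed HAMP with rho 0.22 in lane 7 and 0.54 in lane 8, and with 0.64 in xylose and 0.20 in control libraries.

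The inputs to hepcidin entered only through liver transcripts, and none of those tested was related to HAMP past the threshold. Iron itself and the iron load of transferrin were not among the measures. The BMP ligand gene BMP6 had rho -0.05, and the BMP target genes SMAD7 and ID3 had rho 0.30 and -0.12. Among inflammation markers, the acute phase score had rho -0.09, CRP 0.07 and SOCS3 -0.27. ID3 ranged over 63.2, 192 and 300.5 CPM in liver, while ID1, another BMP target, had a median of 0 CPM. By Pearson, calls appeared under other choices of libraries. With the liver library of 13418 counts added, in which HAMP had no read, TFR2 (r 0.63, adjusted permutation p 0.00980), CD163, a macrophage gene (r 0.63, adjusted 0.00994), SMAD7 (r 0.57, adjusted 0.0341) and HMOX1 (r 0.57, adjusted 0.0341) passed, and their rho did not. These calls rest on that 1 library. With it, r of HAMP with the log10 library total was 0.53, against 0.16 without it. The part of depth in these calls was not tested. In lane 8 alone CD163 passed with r 0.83 (adjusted permutation p 0.0235; rho 0.73, adjusted 0.242). CD163, SMAD7 and HMOX1 are named here after their values were seen.

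**Figure D3:**
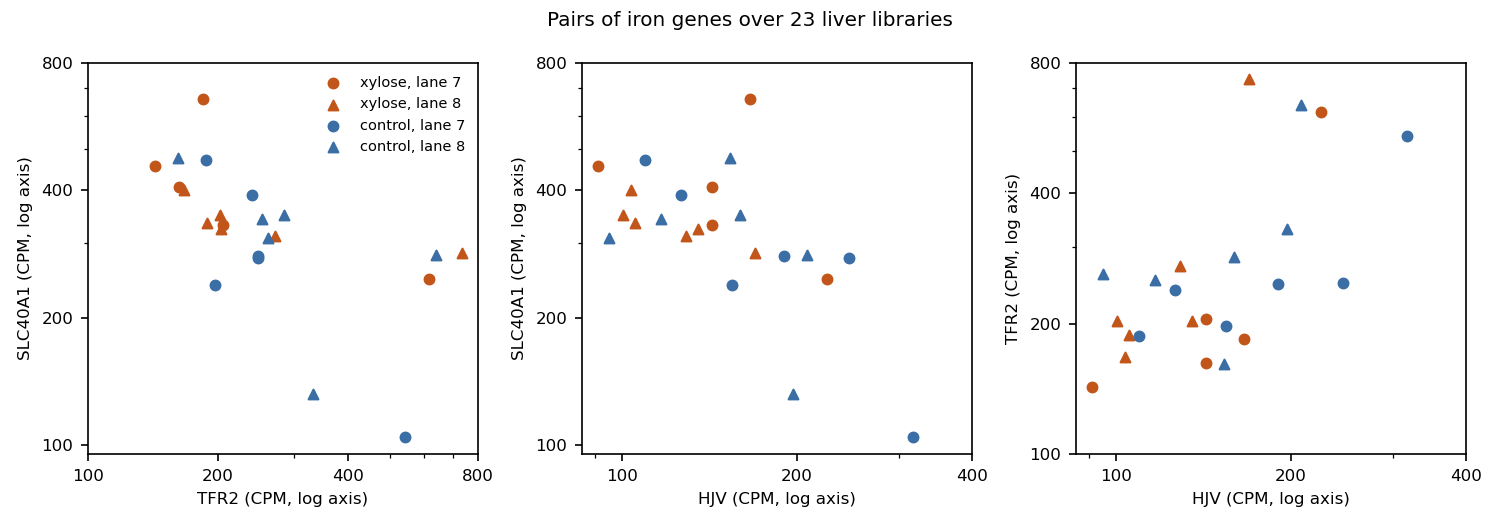
Levels in CPM, on log axes, of SLC40A1 against TFR2 (left), SLC40A1 against HJV (middle) and TFR2 against HJV (right) in 23 liver libraries, coloured by diet with lanes by symbol. SLC40A1 is lower where TFR2 is higher (rho -0.74), and 4 libraries stand over 400 CPM of TFR2.

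Ferroportin and TFR2 ran in opposite directions across livers. Among the 28 pairs of the 8 members tested in liver, 3 passed by Spearman with adjusted permutation p under the threshold. For TFR2 with SLC40A1 rho was -0.74 (permutation p 4e-05, adjusted 0.00112) and r was -0.61 (adjusted 0.0239). The library lowest in TFR2, xylose replicate 2, held 143 CPM of it and 457 CPM of SLC40A1, and the library lowest in SLC40A1, control replicate 6, held 104 CPM of it and 543 CPM of TFR2. Without the 2 libraries farthest from the median of TFR2, rho was -0.77 and r -0.74. By lane, rho was -0.76 in lane 7 (adjusted permutation p 0.119) and -0.82 in lane 8 (adjusted permutation p 0.0526). It was -0.92 in the 11 xylose libraries (adjusted permutation p 0.00756) and -0.55 in the 12 control libraries (adjusted permutation p 0.442); the difference between diets was not tested.

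There were 4 libraries that stood over 400 CPM of TFR2, namely xylose replicates 5 and 7 and control replicates 6 and 8, and the other 19 held 143 to 332 CPM. Within those 19, rho of TFR2 with SLC40A1 was -0.71 and r -0.68 (adjusted permutation p for rho 0.0216). Albumin moved with both genes, with rho -0.58 for TFR2 and 0.61 for SLC40A1, and the summed macrophage markers had rho 0.48 and -0.21. Over all 9193 other genes tested in liver, the median rho with TFR2 was 0.17 and SLC40A1 was rank 73 from the negative end. With SLC40A1 the median rho was -0.12 and TFR2 was rank 118 from that end. With TMM-scaled totals rho of TFR2 with SLC40A1 was -0.80 (adjusted permutation p 0.00084). The part of albumin, macrophage content or scaling in this relation was not tested.

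The other pairs that passed by Spearman both involved HJV. SLC40A1 with HJV had rho -0.61 (permutation p 0.00251, adjusted 0.0351; r -0.62), and TFR2 with HJV rho 0.57 (permutation p 0.00521, adjusted 0.0486; r 0.64). Neither passed within the 19 libraries (rho -0.35 and 0.32, adjusted permutation p 0.855 each) or with TMM-scaled totals (rho -0.47, adjusted permutation p 0.329, and rho 0.35, adjusted 0.586). Among the 9193 other genes, HJV was rank 602 from the negative end for SLC40A1 and rank 1354 from the positive end for TFR2. HJV also had rho -0.81 with albumin. HAMP had rho -0.05 with SLC40A1, the gene of the protein it acts on.

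By Pearson these 3 pairs passed and so did TF with SLC11A2, with r -0.60 (adjusted permutation p 0.0199). Its rho was -0.50 (permutation p 0.0154, adjusted 0.108), and r was -0.30 and rho -0.35 without the 2 libraries farthest from the median of TF. By Spearman, rho was -0.36 in lane 7 and -0.69 in lane 8, and -0.84 in xylose (adjusted permutation p 0.0293) and -0.08 in control libraries; the difference between diets was not tested. With TMM-scaled totals rho was -0.41 (adjusted permutation p 0.511).

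**Figure D4:**
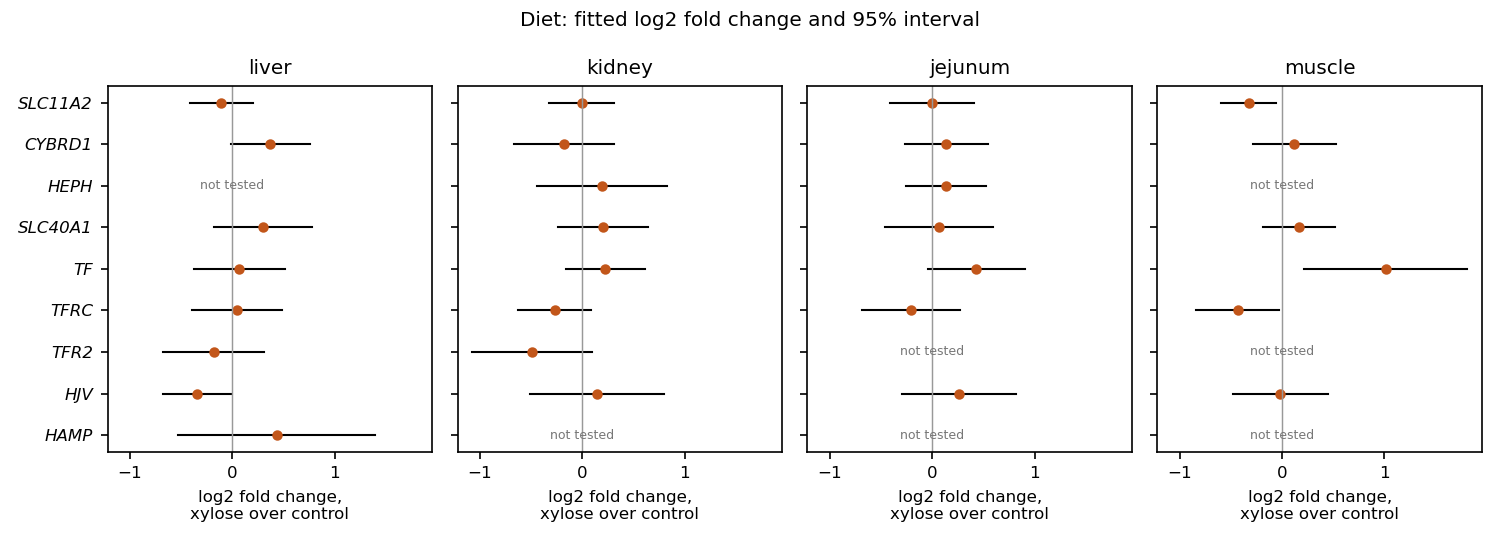
Fitted log2 fold change of xylose over control (points) with its 95% interval (lines) for each iron gene, in 1 panel per tissue; genes below the filter on low counts are marked as not tested. Most intervals cross 0, those that do not are of TF, TFRC and SLC11A2 in muscle and HJV in liver, and none of them passes adjustment over all genes.

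No iron gene passed the test for diet in any tissue. In liver 0 of 8 members tested were called, beside 0% of 9194 genes, in kidney 0 of 8, beside 0% of 10128, in jejunum 0 of 7, beside 0% of 8867, and in muscle 0 of 6, beside 0% of 8436. At an unadjusted p under 0.05 edgeR gave 618, 720, 404 and 620 genes in liver, kidney, jejunum and muscle. At an adjusted p under 0.05 DESeq2 called 0, 0, 0 and 1 in the same order. At the median, the log2 values of the members tested were 0.06 in liver, 0.07 in kidney, 0.13 in jejunum and 0.05 in muscle, beside 0.01, 0.03, 0.00 and 0.03 for all genes tested.

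HAMP in liver was at 0.314, 14.9 and 96.4 CPM in xylose libraries and at 3.24, 12.4 and 32.6 CPM in control libraries. The xylose range enclosed the whole control range. The fitted change was 0.43 ± 0.47, with a 95% interval of -0.53 to 1.39 (adjusted p 0.831). Without xylose replicate 7 it was -0.07 ± 0.42, with an interval of -0.94 to 0.79 (adjusted p 0.960), so that its direction rests on 1 library. It was 0.23 in lane 7 and 0.63 in lane 8.

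Among the iron sensors and transporters of liver, HJV came closest to a difference. It was at 90.9, 135 and 226 CPM in xylose libraries and at 95.0, 157 and 317 CPM in control libraries, with wide overlap. Its fitted change was -0.34 ± 0.16 (unadjusted p 0.0432, adjusted 0.720). CYBRD1 followed with 7.38, 11.0 and 21.8 CPM in xylose and 4.35, 8.92 and 19.1 CPM in control libraries, a change of 0.37 ± 0.19 (adjusted p 0.720). SLC40A1 was at 247, 334 and 657 CPM in xylose and 104, 295 and 476 CPM in control libraries (0.30 ± 0.23), and the values of TFR2 (-0.18 ± 0.24), SLC11A2 (-0.11 ± 0.15), TF (0.07 ± 0.21) and TFRC (0.04 ± 0.21) lay nearer to 0.

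In muscle, 3 of the 6 members tested had an unadjusted p under 0.05, beside 620 of all 8436 genes tested. TF was at 71.1, 105 and 1361 CPM in xylose and 59.6, 85.3 and 136 CPM in control libraries, a fitted change of 1.01 ± 0.39 (adjusted p 0.614). Without xylose replicate 7 the value for TF was 0.24 ± 0.14 (adjusted p 0.485). Of 11 hepatocyte markers tested in muscle, 11 had a value above 0 for xylose over control, with a median of 0.77, where 55.4% of all genes were above 0 and their median was 0.03. Without xylose replicate 7 the median of these 11 markers was 0.34, with 11 above 0, beside 51.9% of all genes and a median of 0.01. The part of these liver transcripts in the value of TF was not tested.

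TFRC in muscle was at 7.86, 17.6 and 36.1 CPM in xylose and 11.4, 26.9 and 33.3 CPM in control libraries, and the groups overlapped over most of their range. The fitted change was -0.43 ± 0.20 (unadjusted p 0.0373, adjusted 0.619), and -0.54 ± 0.18 (unadjusted p 0.00535, adjusted 0.226) without xylose replicate 7. It was -0.81 (adjusted p 0.135) in lane 7 and -0.07 (adjusted p 0.971) in lane 8. SLC11A2, which moves iron from the endosome after uptake through TFRC, was at 17.7, 23.5 and 42.8 CPM in xylose and 23.3, 33.3 and 42.3 CPM in control libraries, a change of -0.33 ± 0.13 (unadjusted p 0.0199, adjusted 0.614), with -0.37 in lane 7 and -0.28 in lane 8. SLC40A1, CYBRD1 and HJV had values of 0.17, 0.12 and -0.02.

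In the jejunum, where xylose is absorbed, the uptake genes showed small values: CYBRD1 0.14 ± 0.20, HEPH 0.13 ± 0.19, SLC40A1 0.07 ± 0.26 and SLC11A2 -0.00 ± 0.20. TF had 121, 191 and 473 CPM in xylose and 91.98, 188 and 278 CPM in control libraries, a change of 0.43 ± 0.23 (adjusted p 0.954). There 10 of 11 hepatocyte markers were above 0, with a median of 0.49, and so were 7 of 7 skeletal muscle markers, with a median of 0.22. Of all genes 50.04% were above 0, with a median of 0.00. In kidney 10 of 11 hepatocyte markers (median 0.42) and 7 of 7 muscle markers (median 0.44) were above 0, beside 54.5% of all genes and a median of 0.03. In kidney, TFR2 had the largest value in size, with 4.33, 12.6 and 21.6 CPM in xylose and 5.46, 15.7 and 50.5 CPM in control libraries (-0.49 ± 0.28, adjusted p 0.745). The 95% intervals of all members tested lay within -0.68 to 1.39 in liver, -1.07 to 0.83 in kidney, -0.69 to 0.90 in jejunum and -0.84 to 1.81 in muscle.

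A diet difference that itself differs between tissues was tested over all 4 tissues. Of 11511 genes 1 was called (0.00869%), with 559 at an unadjusted p under 0.05, and 0 of the 9 iron genes. TFR2 came nearest, with an unadjusted p of 3.94e-05 and an adjusted p of 0.0725, but without the muscle library of xylose replicate 7 its unadjusted p was 0.172. TF had an unadjusted p of 0.0425, and 0.649 without that library. The gene called was GJB1, a gap junction gene that is no member and is named after its value was seen (adjusted p 0.0150), and without that library 0 genes were called.

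Other genes of iron and haem handling, 38 with an identifier, gave the context of the 9. Of the 31 tested between tissues, 17 were called higher and 9 lower in liver than in kidney, 22 and 7 in liver than in jejunum, and 20 and 6 in liver than in muscle, beside 29.4% and 37.3%, 35.8% and 40.9%, and 39.4% and 37.4% of all genes. For kidney over jejunum 19 were higher and 6 lower, beside 37.3% and 37.6%, for kidney over muscle 18 and 7, beside 42.3% and 33.5%, and for jejunum over muscle 11 and 15, beside 43.5% and 38.4%. The most abundant of them in liver were HPX, the plasma haem carrier (median 7282 CPM), the plasma ferroxidase CP (1302 CPM) and ALAS1, which starts haem synthesis (272 CPM). In kidney they were LRP2, a receptor that retrieves filtered proteins (3635 CPM), and the iron-sulphur cluster genes ISCU (595 CPM) and GLRX5 (190.4 CPM). In jejunum they were the metal importer SLC39A14 (154 CPM), FBXL5, an iron sensor that acts on iron regulatory protein (154 CPM), and ISCU (114 CPM), and in muscle ISCU (164 CPM), NEO1, a receptor that binds hemojuvelin (54.7 CPM), and HPX (36.4 CPM). The genes were chosen by their mean, which for HPX in muscle was 67.6 CPM with xylose replicate 7, at 749.9 CPM, and 37.9 CPM without it. FTL, the ferritin light chain, was counted at medians of only 2.70 CPM in liver, 4.80 in kidney, 0.412 in jejunum and 0.264 in muscle.

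With xylose, 0 of these genes were called in any tissue among 29 tested in liver, 28 in kidney, 24 in jejunum and 24 in muscle. At an unadjusted p under 0.05 there were 3, 5, 1 and 3 of them. Over all genes tested there were 618 of 9194, 720 of 10128, 404 of 8867 and 620 of 8436 in the same order. Named after the values were seen, HMOX1, which breaks down haem, had the smallest unadjusted p of these iron and haem genes in kidney (-0.99 ± 0.31, adjusted p 0.653). In liver HFE, another partner in iron sensing, had -0.53 ± 0.20, and ACO1, an iron regulatory protein, had 0.59 ± 0.23 (adjusted p 0.720 each).

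Genes whose levels ran most like each member were found by correlation, given here as a description. Over the 90 libraries, which differ mainly by tissue, the nearest by Pearson r were SERPINC1, TTR and GC for TF (0.99 each), PROC (0.98), F11 and GNMT (0.97 each) for TFR2, and ST6GAL1 (0.96), HPRT1 (0.96) and MBNL3 (0.94) for SLC40A1. They were MYO7B (0.96), PPP1R1B and FAM3B (0.95 each) for CYBRD1, SLC5A1, HKDC1 and SDCBP2 (0.97 each) for HEPH, and SOAT2, ABCG8 and SEC16B (0.89 each) for SLC11A2. For HJV they were ATP2B2 (0.94), TMT1B (0.92) and PFKFB1 (0.91), and for TFRC VWCE (0.82), ASMTL and FAM20A (0.81 each). For HAMP the comparison was made over the 23 liver libraries among 5537 genes, by Spearman rho: BAIAP2 (0.70), CBS and PARP3 (0.69 each), HPD and APOE (0.65 each) ran most alike, and PARP11 (-0.69), TIMM22 (-0.67), UQCC4 (-0.65), NIP7 (-0.64) and HINT1 (-0.62) most opposite. Lane and depth differ among the libraries compared, and no test was made of these values.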

How the data were processed

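Raw read counts per gene were deposited by the authors as 1 file per library; STAR and featureCounts are named, without versions, per the submitters' processing notes. The sources used here give no genome build, annotation, strand or multimapping setting, so counts of overlapping or paralogous genes are uncertain. No molecular identifiers are described. Of 25880 identifiers 14857 have a symbol. Tissue, diet and lane came from the title in each file name. No sample column was left unused. CPM is the count over the library total; log values are log2(CPM + 1).

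Counts were tested with edgeR 4.0.16 in R 4.3.3 (quasi-likelihood F test, TMM, filterByExpr, Benjamini-Hochberg adjustment, threshold 0.05): diet within each tissue with lane as a term, tissue pairs with diet and lane, and the interaction of diet and tissue. The SE of an edgeR change is its size over the square root of its F value, not an SE given by the fit. The 95% intervals use this SE. Correlations used 2-sided permutation tests with 100000 resamples (Python 3.11.15, scipy 1.17.1). DESeq2 1.42.0 was an alternative, as were size factors, filters, library totals alone, all libraries, single lanes, the recorded diets and leaving out libraries that stood apart. The scripts were tested on simulated data. No 2 libraries of a group agreed within sampling noise (1104 pairs, chi-square over its degrees of freedom at least 2.17). The sources do not link libraries to animals, and p-values measure the spread between these samples.

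The members and gene lists were chosen with earlier results of these data known. Named are all members; other iron genes that pass for diet or are among the 3 highest in a tissue; the 5 genes most and least like HAMP; 3 genes most like each other member; and the 3 covariates with the smallest p where none passes.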

Additional observations from a re-analysis of the deposited data

Results flagged for a closer look

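Single libraries stood far from the rest of their group, by the gap to the next library over the range of the group, in 3 of the 18 groups of 4 to 10 libraries examined. All of them were in jejunum, whose groups alone were that small. A chance rate of about 1 in 20 assumes normally distributed values. That was not checked for these CPM values, so the 3 cannot be read against it. HJV had 17.2 CPM in xylose replicate 3, where the next xylose library had 9.15 CPM. That library held 1044588 counts, 28.2% of them mitochondrial, and 9203 CPM of summed skeletal muscle markers. The other jejunum libraries kept held 1706 to 5236 CPM of these markers. HJV had 10.2 CPM in control replicate 5, where the next control library had 7.20 CPM. That library held 4247 CPM of the muscle markers. The part of muscle transcripts or depth in these HJV values was not tested. HAMP had 0.900 CPM in control replicate 7, where the next control library had 0.417 CPM, and no jejunum library held more than 1 read of HAMP.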

How the results depend on the processing

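With the recorded diets, where diet and lane cannot be told apart, 887 genes were called in jejunum, 281 in muscle, 2 in kidney (CRP and an identifier with no symbol) and 1 in liver (TCAP), against 0 by title; 1 member was among them, TF in muscle. DESeq2 called 1 gene in muscle (TMEM109), and so did edgeR without xylose replicate 7 (1 gene, CNN1). Without that library the interaction called 0 genes. Without a filter, kidney over jejunum called 13036 genes, against 8624 with it. Of 28 pairs in liver, 1 passed with TMM-scaled totals, 1 under 400 CPM of TFR2, 2 in xylose libraries, and 0 in lane 7, in lane 8 and in control libraries, where fewer libraries entered.

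Signs turned for these uncalled diet values: SLC11A2 in jejunum (0.0040 with size factors, 0.0053 with DESeq2) and kidney (0.0053 without the lane term); CYBRD1 (-0.0080) and HJV (-0.16) in jejunum and TF in liver (-0.012) with all libraries; HAMP (-0.073), TF (-0.014) and TFRC (-0.018) in liver without xylose replicate 7; and CYBRD1 in muscle (-0.073) without muscle xylose replicate 7. Between tissues they turned for TF (0.62) and TFRC (0.031) in jejunum over muscle and TF (0.98), TFRC (0.95) and SLC11A2 (0.34) in kidney over muscle with library totals alone; TF in kidney over jejunum (-0.29) and SLC40A1 in jejunum over muscle (-0.22) with all libraries; and TFR2 in jejunum over muscle (0.24) without muscle xylose replicate 7. The cause was not tested. Over the alternatives 120 member diet values kept direction and call and 10 turned; between tissues 243 kept them, 8 turned, 14 lost the call and 5 gained it.

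Samples of different tissues share a replicate number and a well position only: their deviations correlated at a mean of 0.129 (lowest -0.522; 75 of 126 pairs over 0.1), against 0.0103 for other pairs. With that replicate block the calls were 8714, 8877, 9437, 8852, 8898 and 7786 for kidney over jejunum, liver over jejunum, jejunum over muscle, kidney over muscle, liver over muscle and liver over kidney. Under the block TFR2 in kidney over muscle was 1.16 and passed; SLC11A2 in liver over jejunum (-0.21), TF (-0.28) and TFR2 (-0.33) in jejunum over muscle and TF in kidney over muscle (-0.17) did not.

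HAMP rests on few reads (a median of 43 per liver library), its level depends on 3′ annotation, and FTH1 was not analysed here.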
